A study of Mus musculus with 6 samples.

Results

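Antisense genes are annotated transcription units that run along the strand opposite another gene. This account covers the 292 of them that were well expressed in mouse pancreatic islets, out of 2826 antisense genes and 54532 genes of all kinds in the deposited table. A gene was taken when the table gave its biotype as antisense and its mean over all 6 libraries was at least 1 FPKM. This unit is fragments per kilobase of gene, scaled to a size set for each library. Airn and Kcnq1ot1 were left out by name. Of the other antisense genes, 217 had means of 0.5 to 1 FPKM, and 1968 antisense genes were above 0 in at least 1 library. The genes were thus chosen by their mean FPKM, and their levels are given as a description. The islets came from 7-week-old mice of 2 groups. The libraries labelled Wtap-βKO came from mice in which Wtap was targeted in β cells, and the Wtap flox/flox libraries came from mice with the floxed alleles. Each group had 3 libraries, and each library pooled the islets of 3 mice. The driver of the deletion, the exons removed and whether every mouse shared other alleles are not given in the sources used here. The WTAP protein belongs to the methyltransferase complex that places N6-methyladenosine on RNA in the nucleus, and the series concerns its role in β-cell function.

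An antisense RNA can share a promoter region with its partner when the genes start head to head, can overlap the partner's 3′ end, or can lie wholly inside it. Some antisense RNAs act on the gene next to them, through chromatin, through the act of transcription or by pairing with the other RNA, and for many no role is known. In islets the best known case is Plut, whose human counterpart PLUTO is needed for full expression of PDX1, a homeobox factor of pancreas development and mature β cells. The libraries were made without a step that marks the strand. Reads from an antisense gene and from its partner therefore cannot be told apart wherever their exons overlap. The same holds for reads of unspliced partner RNA over antisense exons that lie in the partner's introns. The share of such reads was not measured.

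Start regions are shown as a description, on which no call rests, for 6 genes. They are the antisense gene with the largest log2 fall (2410021H03Rik), the pairs 1700112D23Rik with Slc2a2 and Plut with Pdx1, in which both genes fell, and 5330439B14Rik, an antisense gene that rose with its partner Abcc9. Each is the RefSeq window of 250 bases before and 50 after the gene's start on GRCm38.p6, read 5′ to 3′ on the gene's own strand. The table of such windows held 127 of the 292 antisense genes and the partners of 213 of the 268 that have one, matched by symbol. Capitals mark every match, on either strand, to any of 5 short motifs. They included TATAAA, a core element near some starts, and CCAAT, the box bound by factors such as NF-Y. Another was GGGCGG, the box bound by factors such as SP1 and here called the GC box. The others were TAATTA, a core that many homeodomain factors bind, and TGCTGA, the half-site of MAF factors. No marked matches overlapped each other.
2410021H03Rik, chr17:69277157-69277456, minus strand: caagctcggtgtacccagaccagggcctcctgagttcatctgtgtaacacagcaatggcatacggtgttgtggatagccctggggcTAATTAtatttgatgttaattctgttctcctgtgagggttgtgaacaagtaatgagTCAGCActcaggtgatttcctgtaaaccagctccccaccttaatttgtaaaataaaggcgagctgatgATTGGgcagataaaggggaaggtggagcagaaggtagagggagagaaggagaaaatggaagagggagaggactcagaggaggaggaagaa
1700112D23Rik, chr3:28781073-28781372, minus strand: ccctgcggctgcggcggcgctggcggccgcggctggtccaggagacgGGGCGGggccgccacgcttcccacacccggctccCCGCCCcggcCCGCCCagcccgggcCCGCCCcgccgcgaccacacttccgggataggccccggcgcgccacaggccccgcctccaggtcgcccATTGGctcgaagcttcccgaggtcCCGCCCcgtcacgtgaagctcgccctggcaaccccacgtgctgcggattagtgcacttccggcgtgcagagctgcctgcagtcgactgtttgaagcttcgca
Slc2a2, chr3:28697653-28697952, plus strand: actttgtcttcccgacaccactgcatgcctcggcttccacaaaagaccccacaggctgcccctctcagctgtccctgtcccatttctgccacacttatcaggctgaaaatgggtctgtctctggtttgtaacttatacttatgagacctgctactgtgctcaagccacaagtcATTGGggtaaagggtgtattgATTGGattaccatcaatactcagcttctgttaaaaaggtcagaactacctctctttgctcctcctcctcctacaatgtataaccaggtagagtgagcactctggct
Plut, chr5:147271472-147271771, minus strand: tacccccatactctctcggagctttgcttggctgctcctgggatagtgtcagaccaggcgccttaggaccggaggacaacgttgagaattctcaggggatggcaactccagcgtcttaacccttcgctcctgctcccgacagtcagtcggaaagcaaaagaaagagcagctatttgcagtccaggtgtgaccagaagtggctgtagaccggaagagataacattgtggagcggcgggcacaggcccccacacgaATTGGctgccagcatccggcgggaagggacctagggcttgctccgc
Pdx1, chr5:147269847-147270146, plus strand: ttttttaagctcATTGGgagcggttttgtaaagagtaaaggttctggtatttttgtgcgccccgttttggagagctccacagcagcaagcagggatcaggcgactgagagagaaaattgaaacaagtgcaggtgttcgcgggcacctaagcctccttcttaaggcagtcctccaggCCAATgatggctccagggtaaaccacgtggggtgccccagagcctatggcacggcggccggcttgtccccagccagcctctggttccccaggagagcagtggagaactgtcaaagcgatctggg
5330439B14Rik, chr6:142614345-142614644, plus strand: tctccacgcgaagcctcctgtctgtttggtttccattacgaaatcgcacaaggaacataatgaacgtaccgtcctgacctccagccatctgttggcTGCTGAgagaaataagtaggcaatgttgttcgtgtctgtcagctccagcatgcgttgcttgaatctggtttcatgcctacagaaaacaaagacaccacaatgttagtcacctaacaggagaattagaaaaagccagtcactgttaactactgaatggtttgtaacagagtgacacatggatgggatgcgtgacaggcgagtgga

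The window of 2410021H03Rik held a homeodomain core, a MAF half-site and a CCAAT box. These letters stand in 5.29%, 19.5% and 37.4% of 32851 RefSeq windows of the same length. The window of 1700112D23Rik was 75% G and C and held 5 GC boxes, a motif found at least once in 35.7% of windows, whereas that of its partner Slc2a2 was 48% G and C and held none. Slc2a2 held CCAAT boxes alone, as did Plut and Pdx1. 5330439B14Rik held 1 MAF half-site. None of the 6 held TATAAA, which 13.6% of windows do. The RefSeq start of Pdx1 lay 138 bases from the start in the deposited table, and the other starts lay within 14 bases of it. A match describes the letters and is no evidence of a bound factor.

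Facts of the whole series bear on every direction below. Wtap itself, on the minus strand of chromosome 17, was at 11.2, 11.9 and 12.3 FPKM in the libraries labelled Wtap-βKO, against 10.5, 11.4 and 11.6 FPKM in Wtap flox/flox libraries (adjusted p = 0.475 by limma for a log2 fold change of 0.07, SE 0.06). The targeted gene therefore did not bear out the labels at the level of the whole gene, and directions are those of the libraries as labelled. The 6 libraries held 16353297 to 18682745 recovered reads. A first principal component with 49.45% of the variance separated the groups, and a second with 16.22% set replicate 2 labelled Wtap-βKO apart from the other libraries of its group. Of 7 β-cell markers 5 fell, their summed level being 81036 to 91625 FPKM labelled Wtap-βKO and 133354 to 153279 FPKM in Wtap flox/flox. Of 5 α-cell markers 4 rose. Of the markers of other cell types, 2 of 7 acinar and 2 of 5 mesenchymal genes rose, with summed levels of 177 to 249 and 26.4 to 32.7 FPKM labelled Wtap-βKO, against 102 to 175 and 15.4 to 20.1 FPKM in Wtap flox/flox. Of 2 lymphocyte markers tested 1 rose and 1 fell, and the summed level of all 4 on that list was 43.4 to 53.8 FPKM labelled Wtap-βKO and 11.8 to 13.6 FPKM in Wtap flox/flox. Red blood cell markers summed to 44.4 to 52.6 FPKM labelled Wtap-βKO and 29.1 to 33.7 FPKM in Wtap flox/flox, with 1 of 4 called higher. One gene each rose of 3 δ and PP-cell, 5 ductal, 5 endothelial and 5 macrophage markers, and no glial or neuronal marker was called. No marker on these lists was at 0. The part of these shifts in the antisense results was not tested, and in bulk islets fewer cells of a type and less RNA per cell cannot be told apart.

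The 292 antisense genes were expressed at low to moderate levels, with means of 1.001 FPKM at the lowest, 2.18 at the median and 28.3 at the highest. Of these, 158 reached 2 FPKM, 52 reached 5 and 14 reached 10. Together they summed to 946, 940 and 870 FPKM in the libraries labelled Wtap-βKO and to 996, 1091 and 1023 FPKM in Wtap flox/flox libraries, which was 0.223% to 0.257% and 0.238% to 0.258% of all FPKM. The number of reads behind a gene over all 6 libraries was 23 at the lowest, 258 at the median and 11903 at the highest, and 8 genes had under 60. In 250 genes the mean reached 1 FPKM in both groups, in 21 in the libraries labelled Wtap-βKO alone and in 21 in Wtap flox/flox alone, so these last genes passed the minimum through the group in which they were high. Chromosomes 7 and 2 carried 28 each, chromosome 11 carried 25 and chromosome 6 carried 23.

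Most had a protein-coding gene across from them. An opposite-strand gene overlapped 268 of the 292 by at least 1 base of their spans, and this partner was protein-coding for 266 and a lincRNA for 2. There were 259 distinct partners, 9 of them shared by 2 antisense genes. The antisense gene lay inside its partner in 124 cases, head to head with it in 78, tail to tail in 58 and around it in 8. The head-to-head starts lay 769 bases apart at the median, and 46 of the 78 lay within 1 kb. Another 21 of the 24 without a partner had an opposite-strand gene within 2 kb. In 264 pairs the GENCODE M21 exons had the same spans as the table. Among these, 87 pairs shared no exon base, 58 antisense genes lay wholly in their partner's introns, and 14 had at least 50% of their exon bases inside partner exons. The median share was 9.33% and the highest 80.5%.

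Antisense genes were mostly below their partners, as the plot of levels shows. In 257 pairs both genes had a mean of at least 0.5 FPKM, and the antisense gene was the lower in 214 of them. Its level was 24.6% of its partner's at the median, ranging over the pairs from 0.270% to 567%. The partners were themselves well expressed, with a median of 10.9 FPKM against 6.30 FPKM for all protein-coding genes tested. Pcsk2os1, head to head with the prohormone convertase gene Pcsk2, was among the most uneven, at 3.68 against 509 FPKM over all libraries. The highest ratio was that of Trmt61b, named after its values were seen, a gene for a tRNA methyltransferase that the table nonetheless types as antisense, at 3.58 FPKM against 0.632 FPKM for Spdya.

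**Figure D1:**
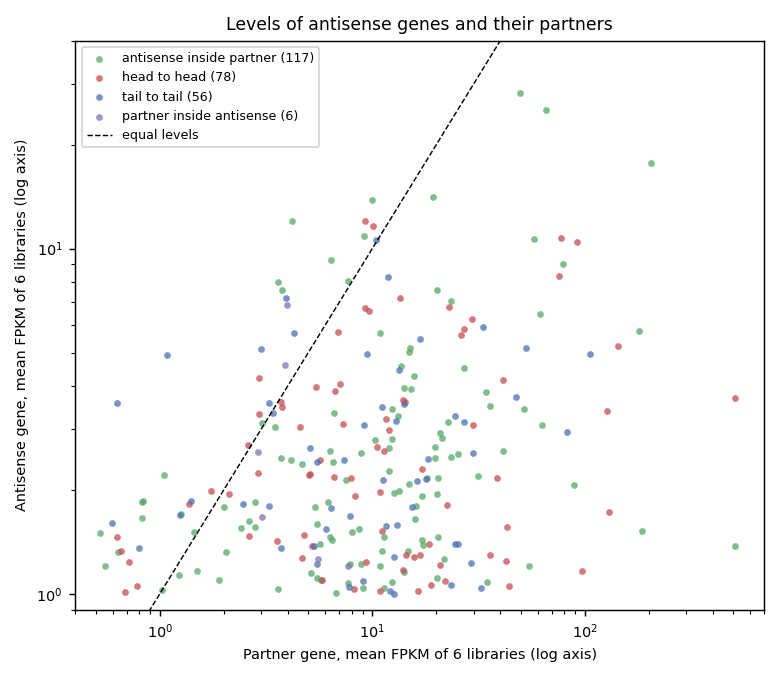
Mean FPKM over all 6 libraries of each antisense gene (vertical, log axis) against its overlapping partner (horizontal, log axis) for the 257 pairs in which both reached 0.5 FPKM, coloured by arrangement. In 214 of these pairs the antisense gene is below its partner, to the right of the dashed line of equal levels. The pair of Gm28902 with Resp18, at 2.35 against 863 FPKM, lies beyond the right edge and is not drawn.

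Gm6566, the most abundant of the antisense genes by mean FPKM, lies inside Gstz1, an enzyme gene of tyrosine breakdown, and was at 30.8, 20.3 and 27.2 FPKM in the libraries labelled Wtap-βKO and 29.0, 32.2 and 30.4 FPKM in Wtap flox/flox libraries. 6430503K07Rik lies in an intron of Nkx2-2, a homeobox factor of islet cells, and was at 22.8, 23.7 and 24.4 against 24.1, 22.9 and 33.2 FPKM. Gm45486 lies in an intron of Abcc8, which encodes the sulphonylurea receptor of the β-cell potassium channel, and was at 20.04, 11.7 and 18.6 against 17.1, 20.9 and 17.8 FPKM. In these 3 genes the groups overlapped, with log2 fold changes of -0.23 (SE 0.14, adjusted p = 0.287), -0.15 (SE 0.13, adjusted p = 0.46) and -0.17 (SE 0.19, adjusted p = 0.57). Gm17201, inside the phosphatase subunit gene Ankrd52, averaged 13.8 ± 2.74 FPKM labelled Wtap-βKO and 13.9 ± 0.844 FPKM in Wtap flox/flox (SD, n = 3 each), also with overlap (adjusted p = 0.904). It shares 59.5% of its exon bases with Ankrd52, and reads there cannot be assigned to either gene. 6430503K07Rik stood at 38.3% of the FPKM of Nkx2-2 and Gm45486 at 8.62% of that of Abcc8, and neither partner was called (adjusted p = 0.129 and 0.354).

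By limma on log2(FPKM + 1), a scale that understates the change of low genes, 17 of the 292 antisense genes rose and 35 fell in the libraries labelled Wtap-βKO at an adjusted p under 0.05. All genes tested gave 8.77% higher and 11.3% lower calls, and the antisense genes 5.82% and 12%, so the share of falls was near that of the whole table and the share of rises below it. Protein-coding genes gave 9.77% and 12.5%, lincRNA genes 4.48% and 11.7%, and the 217 antisense genes of 0.5 to 1 FPKM gave 2.3% in each direction, or 4.61% in all. The median log2 fold change was -0.05 over the 292 and -0.0054 over all 15927 genes. In each of the 52 called genes the groups did not overlap. Counting genes without overlap, called or not, gave 34 higher and 57 lower, 31.2% of the 292 beside 41.3% of all genes. Of the called genes, 4 of the 17 higher and 7 of the 35 lower had a mean under 1 FPKM in their lower group and so passed the minimum through the other. At least a 2-fold change in mean FPKM was seen in 7 of the 17 rises and 13 of the 35 falls. The same share over all called genes is not given here, so these counts cannot be read as particular to antisense genes.

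The counts leaned on scaling and on single libraries. Scaled to total recovered reads, 26 antisense genes were called higher and 25 lower, 51.0% higher where the deposited scaling gave 32.7%, and the median of all genes shifted by 0.0871. Calls over all genes turned the same way and further, to 2334 higher and 1094 lower, 68.1% higher where the deposited scaling gave 43.7%. Rises numbered 8 without replicate 1 labelled Wtap-βKO and 10 without Wtap flox/flox replicate 1. Falls numbered 20, 23 and 22 without Wtap flox/flox replicates 1, 2 and 3. Without replicate 2 labelled Wtap-βKO, the library that stood apart, there were 20 rises and 37 falls. Calls that held without each library in turn numbered 5 of the 17 rises and 17 of the 35 falls. Counts over all genes without each library are not given here, so these losses cannot be read as particular to antisense genes.

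The largest fall on the log2 scale was that of 2410021H03Rik, on the minus strand of chromosome 17 between bases 69275362 and 69277208, wholly in introns of Epb41l3, a gene for a protein that ties membrane proteins to the cytoskeleton. It was at 1.6, 3.14 and 3.11 FPKM in the libraries labelled Wtap-βKO, against 21.7, 28.0 and 26.9 FPKM in Wtap flox/flox libraries. Every library labelled Wtap-βKO was far below every Wtap flox/flox library, with means of 2.62 ± 0.884 and 25.6 ± 3.35 FPKM (SD, n = 3 each), a 9.76-fold fall (adjusted p = 0.000403 by limma for a log2 fold change of -2.90, SE 0.20). In Wtap flox/flox it stood at the level of its partner. Epb41l3 fell less, to 13.0 ± 0.671 FPKM labelled Wtap-βKO, against 25.4 ± 1.12 FPKM in Wtap flox/flox (SD, n = 3 each), 1.95-fold (adjusted p = 0.000403).

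1700112D23Rik fell 9.82-fold together with Slc2a2, the gene of the glucose transporter GLUT2. The antisense gene occupies bases 28702667 to 28781108 of chromosome 3, minus strand, tail to tail with Slc2a2, and shares none of its exon bases. It has 39.6% of its exon bases in Slc2a2 introns, however, where reads of unspliced Slc2a2 RNA cannot be told apart from its own. It was at 1.03, 1.24 and 0.481 FPKM in the libraries labelled Wtap-βKO, against 8.60, 10.4 and 7.93 FPKM in Wtap flox/flox libraries, which rest on 14, 16 and 6 reads and on 109, 119 and 102 reads. The groups stood far apart (log2 fold change -2.40, SE 0.17, adjusted p = 0.000449). Slc2a2 was at 34.9, 34.9 and 30.6 FPKM labelled Wtap-βKO, against 169, 198 and 169 FPKM in Wtap flox/flox, a 5.34-fold fall (adjusted p = 8.06e-05). The log2 fall of the antisense gene minus that of Slc2a2 was -0.02 (95% interval -0.39 to 0.36, adjusted p = 0.982). Over the alternatives this difference ran from -0.83, at a pseudocount of 0.1, to 0.10, and no alternative called it. The small difference on the log2(FPKM + 1) scale therefore does not show equal change, since the ratios of mean FPKM were 9.82 and 5.34. The mean of 1700112D23Rik was at least 1 FPKM in Wtap flox/flox alone.

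Gm44850, at bases 128215616 to 128220788 of the minus strand of chromosome 7, was at 1.44, 1.98 and 1.75 FPKM in the libraries labelled Wtap-βKO, against 10.01, 13.6 and 13.3 FPKM in Wtap flox/flox libraries. All 3 were far below the Wtap flox/flox libraries, and the fall was 7.15-fold (log2 fold change -2.28, SE 0.13, adjusted p = 0.000214). It lies inside Itgad, which encodes a leukocyte integrin subunit. Itgad was under the filter and was not tested, with 0.118, 0.136 and 0.103 FPKM labelled Wtap-βKO and 0.595, 0.604 and 0.573 FPKM in Wtap flox/flox.

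Dtnbos lies in introns of Dtnb, the gene of β-dystrobrevin in the dystrophin-associated complex, on chromosome 12 from 3752543 to 3762146. It was at 3.22, 2.86 and 2.48 FPKM in the libraries labelled Wtap-βKO, against 12.5, 18.2 and 16.4 FPKM in Wtap flox/flox libraries. The groups did not come near each other, and the fall was 5.51-fold (log2 fold change -2.11, SE 0.14, adjusted p = 0.000403). Dtnb fell 1.33-fold, with 5.47 ± 0.329 FPKM labelled Wtap-βKO and 7.27 ± 0.223 FPKM in Wtap flox/flox (SD, n = 3 each, adjusted p = 0.0124). Slc6a19os starts head to head with Slc6a19, a transporter gene for neutral amino acids. It was at 0.256, 0.236 and 0.210 FPKM labelled Wtap-βKO, against 2.68, 4.66 and 2.85 FPKM in Wtap flox/flox, which rest on 8, 7 and 6 reads and on 78, 122 and 84 reads. The means of 0.234 FPKM labelled Wtap-βKO and 3.39 FPKM in Wtap flox/flox give a 14.5-fold fall with no overlap, in a gene that passed the minimum through Wtap flox/flox alone (log2 fold change -1.81, SE 0.17, adjusted p = 0.00121). Slc6a19 fell 4.01-fold, to 0.549 ± 0.130 FPKM labelled Wtap-βKO, against 2.20 ± 0.277 FPKM in Wtap flox/flox (SD, n = 3 each, adjusted p = 0.00215).

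Plut, across from Pdx1, fell 2.87-fold. It occupies bases 147228596 to 147271521 of chromosome 5 on the minus strand, starts inside Pdx1 and runs back past its start without sharing an exon base. Of its exon bases 20.7% lie within introns of Pdx1, where reads of unspliced Pdx1 RNA cannot be told apart from its own. Plut was at 4.31, 5.13 and 3.50 FPKM in the libraries labelled Wtap-βKO, against 12.7, 12.1 and 12.4 FPKM in Wtap flox/flox libraries. All libraries labelled Wtap-βKO were below the others (log2 fold change -1.35, SE 0.11, adjusted p = 0.000768). Pdx1 was at 57.8, 39.7 and 60.8 FPKM labelled Wtap-βKO, against 97.1, 95.1 and 105 FPKM in Wtap flox/flox, a 1.88-fold fall (adjusted p = 0.00867). The library with the lowest Pdx1, replicate 2 labelled Wtap-βKO, had the highest Plut of its group. The log2 fall of Plut minus that of Pdx1 was -0.43 (95% interval -0.98 to 0.13, adjusted p = 0.358). Over the alternatives this difference ran from -0.72 to -0.20, and it was called in 1, without replicate 2 labelled Wtap-βKO (-0.72, adjusted p = 0.0492). Without replicate 3 labelled Wtap-βKO it was -0.20 (adjusted p = 0.686).

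The other 6 of the 12 largest falls were smaller on the log2(FPKM + 1) scale, and 4 of them lost their call without 1 library. Gm13027, in an intron of the synaptic adhesion gene Igsf21, was at 2.42, 1.39 and 1.2 FPKM in the libraries labelled Wtap-βKO, against 4.26, 7.09 and 3.73 FPKM in Wtap flox/flox libraries (3.01-fold lower, adjusted p = 0.018, and 0.061 without replicate 3 labelled Wtap-βKO). 5033421B08Rik, tail to tail with the amino acid transporter gene Slc7a15, was at 0.843, 0.577 and 1.01 against 1.68, 3.02 and 2.46 FPKM (2.94-fold lower, adjusted p = 0.0146, and 0.0536 without Wtap flox/flox replicate 3). Both were lower in every library labelled Wtap-βKO. 5033421B08Rik passed the minimum through Wtap flox/flox alone, with a mean of 2.39 FPKM there and 0.812 FPKM labelled Wtap-βKO. Slc7a15 fell too (adjusted p = 0.0263), although without 1 library its adjusted p was 0.066 (replicate 1 labelled Wtap-βKO), 0.0777, 0.0837 and 0.0673 (Wtap flox/flox replicates 1, 2 and 3). Gm12279, which overlaps no opposite-strand gene and starts 130 bases from the start of the ubiquitin gene Ubb, was at 2.89, 4.18 and 2.56 against 7.18, 6.24 and 6.31 FPKM (2.05-fold lower, adjusted p = 0.00829). Ubb itself was not called (adjusted p = 0.212).

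Gm14097, inside the DNA repair gene Shld1, was among the 8 most abundant, with 9.25, 6.06 and 10.4 FPKM in the libraries labelled Wtap-βKO, against 15.9, 13.5 and 17.2 FPKM in Wtap flox/flox libraries (1.81-fold lower, adjusted p = 0.0226). The call was lost without Wtap flox/flox replicate 1 (adjusted p = 0.0716) or 3 (adjusted p = 0.0766). Gm45606, head to head with the amino acid transporter gene Slc43a2, was at 3.74, 4.84 and 3.03 against 7.45, 7.95 and 6.74 FPKM (1.91-fold lower, adjusted p = 0.00979). Gm16174, in an intron of Bcl3, a co-regulator of NF-κB, was at 3.83, 7.36 and 5.91 against 9.37, 12 and 9.51 FPKM (1.80-fold lower, adjusted p = 0.0361). In all 3 the groups stayed apart. The call of Gm16174 needed 4 of the libraries, its adjusted p being 0.0805 without replicate 3 labelled Wtap-βKO and 0.0763, 0.112 and 0.0803 without Wtap flox/flox replicates 1, 2 and 3. None of the partners Shld1, Slc43a2 and Bcl3 was called (adjusted p = 0.386, 0.0949 and 0.338).

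**Figure D2:**
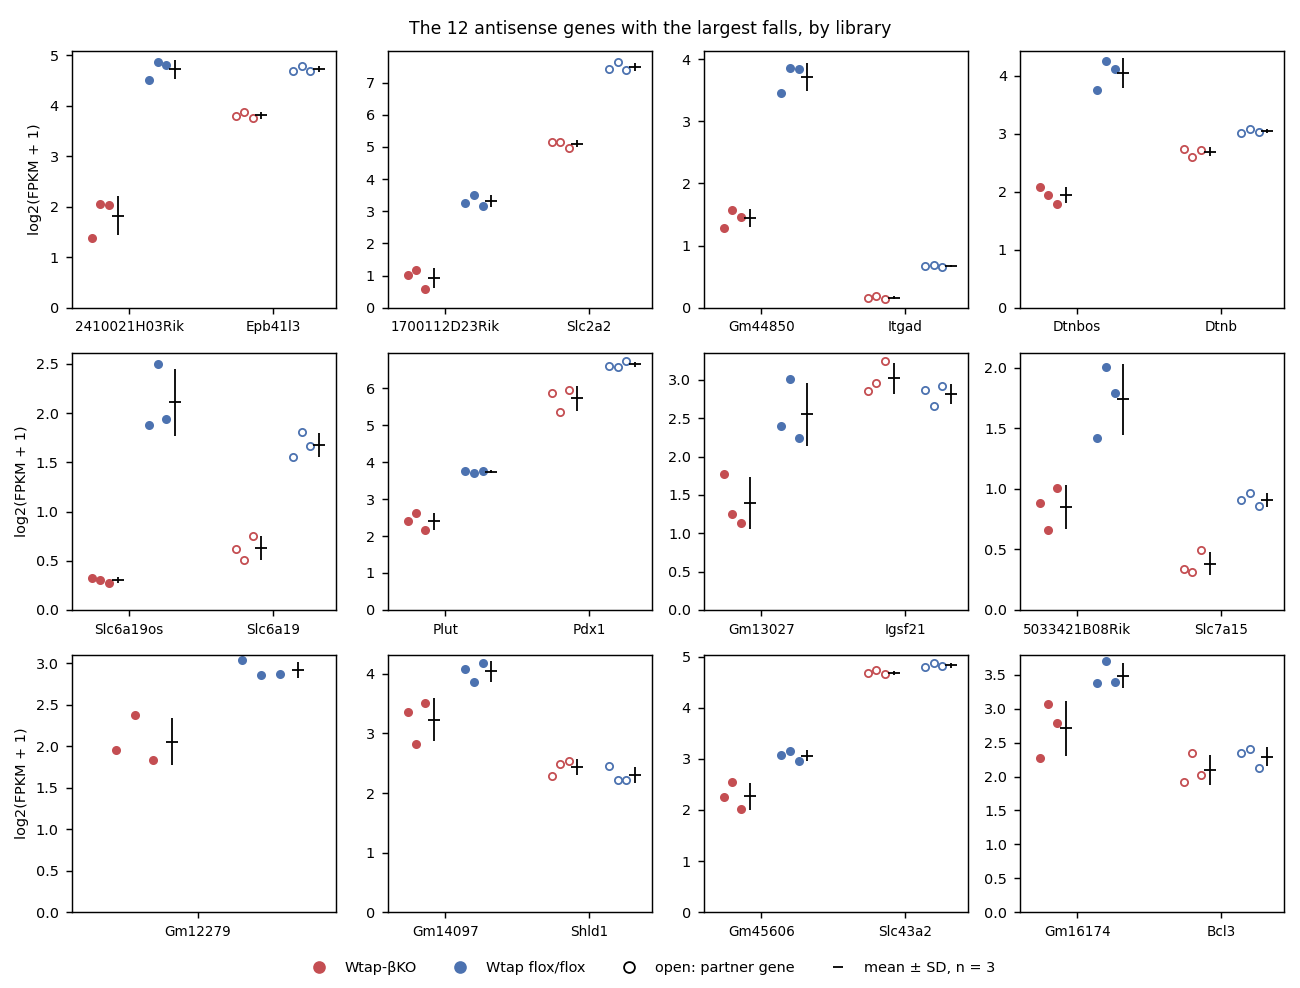
log2(FPKM + 1) in each library for the 12 antisense genes with the largest falls (filled points) and their partners (open points), with Wtap-βKO-labelled libraries in red left of Wtap flox/flox libraries in blue and black bars for mean ± SD (n = 3). In every panel the red filled points lie below the blue filled points, from 1.6 to 3.14 against 21.7 to 28.0 FPKM for 2410021H03Rik, and the vertical scale differs between panels.

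The rises were smaller. The largest on the log2 scale was that of Gm16024, which rests on 10, 9 and 5 reads in the libraries labelled Wtap-βKO, against 0, 0 and 4 reads in Wtap flox/flox libraries. It was at 3.10, 2.94 and 1.7 against 0, 0 and 1.31 FPKM, without overlap (log2 fold change 1.41, SE 0.35, adjusted p = 0.0326). Its mean of 2.58 FPKM labelled Wtap-βKO, beside 0.438 FPKM in Wtap flox/flox, alone brought it over the minimum. Its call was lost without each library labelled Wtap-βKO (adjusted p = 0.0956, 0.0799 and 0.0504 without replicates 1, 2 and 3) and without Wtap flox/flox replicates 1 and 2 (adjusted p = 0.097 and 0.0995).

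9130015G15Rik was 5.11-fold higher while its partner fell. Its mean of 2.04 FPKM labelled Wtap-βKO, beside 0.399 FPKM in Wtap flox/flox, alone brought it over the minimum of 1 FPKM and the filter, so it entered the list through the group in which it was high. It lies in an intron of Nav2, the neuron navigator 2 gene, at bases 49122334 to 49159819 of the minus strand of chromosome 7. It was at 1.91, 2.15 and 2.07 FPKM in the libraries labelled Wtap-βKO, against 0.348, 0.534 and 0.316 FPKM in Wtap flox/flox libraries. The libraries of a group lay close together and the groups far apart (log2 fold change 1.12, SE 0.11, adjusted p = 0.00133). Nav2 was at 6.87, 6.43 and 6.21 FPKM labelled Wtap-βKO, against 9.27, 9.58 and 8.83 FPKM in Wtap flox/flox, lower in each (log2 fold change -0.45, adjusted p = 0.00509).

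5330439B14Rik was 4.51-fold higher, and it too entered the list through the libraries labelled Wtap-βKO alone, with a mean of 2.17 FPKM there and 0.481 FPKM in Wtap flox/flox. It occupies bases 142614595 to 142626462 of chromosome 6 inside Abcc9, which encodes a sulphonylurea receptor related to that of Abcc8, and shares 11.4% of its exon bases with it. It was at 1.45, 3.05 and 2 FPKM in the libraries labelled Wtap-βKO, against 0.492, 0.546 and 0.404 FPKM in Wtap flox/flox libraries, clear of each other (log2 fold change 1.07, SE 0.19, adjusted p = 0.0102). Abcc9 was also called higher, at 2.41 ± 0.144 FPKM labelled Wtap-βKO and 1.68 ± 0.196 FPKM in Wtap flox/flox (SD, n = 3 each, adjusted p = 0.0418). That call of Abcc9 was lost without each library in turn, with adjusted p of 0.105, 0.0851 and 0.0791 without replicates 1, 2 and 3 labelled Wtap-βKO and 0.0574, 0.118 and 0.114 without those of Wtap flox/flox.

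Gm26944 rose 2.51-fold across from Pcf11, a gene of messenger RNA cleavage and transcription termination. It occupies bases 92639739 to 92647442 of the plus strand of chromosome 7, tail to tail with Pcf11. It was at 6.79, 6.18 and 6.14 FPKM in the libraries labelled Wtap-βKO, against 2.61, 2.60 and 2.40 FPKM in Wtap flox/flox libraries. The spread within groups was small against the gap (log2 fold change 1.06, SE 0.07, adjusted p = 0.000403). Pcf11 was at 13.2, 13.3 and 14.1 FPKM labelled Wtap-βKO and 12.4, 14.4 and 12.8 FPKM in Wtap flox/flox, with overlap (adjusted p = 0.744).

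In 4 more of the 12 largest rises the partner rose as well. Gm44210, head to head with Efcc1, was at 5.51, 4.86 and 4.31 FPKM in the libraries labelled Wtap-βKO, against 2.16, 1.24 and 2.76 FPKM in Wtap flox/flox libraries (adjusted p = 0.0144, and 0.0514 without replicate 1 labelled Wtap-βKO), and Efcc1 rose 1.72-fold (adjusted p = 0.00401). Gm28523, head to head with the cyclic nucleotide phosphodiesterase gene Pde3a, was at 2.71, 3.31 and 2.37 against 0.791, 1.48 and 0.991 FPKM (adjusted p = 0.01), and Pde3a rose 1.78-fold (adjusted p = 0.00561). It shares 46.7% of its exon bases with Pde3a, and Gm44210 shares 25.4% of its own with Efcc1. 1700110K17Rik, inside Gramd1b, which moves cholesterol at membrane contacts, was at 3.10, 5.22 and 3.61 against 1.94, 2.16 and 2.19 FPKM (adjusted p = 0.0259), and Gramd1b rose 1.59-fold (adjusted p = 0.0125). The call of 1700110K17Rik was lost without replicate 3 labelled Wtap-βKO (adjusted p = 0.0615) and without Wtap flox/flox replicates 1, 2 and 3 (adjusted p = 0.0827, 0.0728 and 0.0682).

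Prox1os, head to head with the homeobox gene Prox1, was at 3.91, 4.32 and 3.15 FPKM in the libraries labelled Wtap-βKO, against 2.27, 2.37 and 1.83 FPKM in Wtap flox/flox libraries, and none overlapped (adjusted p = 0.016, but 0.0545 without replicate 1 labelled Wtap-βKO and 0.0526 without Wtap flox/flox replicate 3). Prox1 was at 13.6 ± 1.25 FPKM labelled Wtap-βKO and 10.4 ± 0.655 FPKM in Wtap flox/flox (SD, n = 3 each, adjusted p = 0.0268). Its call was lost without replicate 1 or 3 labelled Wtap-βKO (adjusted p = 0.0723 and 0.0814) and without Wtap flox/flox replicate 2 or 3 (adjusted p = 0.0831 and 0.0888).

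Of the other 4 of the 12 rises, 3 are given here, and their partners were not called or were lower. Gm14964, inside the neurexin gene Nrxn2, was at 2.72, 2.65 and 1.45 FPKM in the libraries labelled Wtap-βKO, against 0.526, 0.666 and 0.961 FPKM in Wtap flox/flox libraries (adjusted p = 0.0181). It passed the minimum through the libraries labelled Wtap-βKO alone, with a mean of 2.27 FPKM there and 0.718 FPKM in Wtap flox/flox. A730011C13Rik, inside Pi4kb, a lipid kinase gene, was at 2.73, 2.70 and 2.18 against 1.48, 1.67 and 1.69 FPKM (adjusted p = 0.0242). In both the groups were apart, and Nrxn2 and Pi4kb were not called (adjusted p = 0.514 and 0.111). Gm10516, head to head with Rcor3, a corepressor gene, was at 3.63, 2.91 and 3.22 against 1.97, 1.93 and 2.56 FPKM (adjusted p = 0.0363), while Rcor3 was at 2.26, 1.87 and 2.27 against 2.85, 3.30 and 2.98 FPKM (adjusted p = 0.0327).

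These 3 calls depended on single libraries. That of Gm14964 was lost without replicate 1 labelled Wtap-βKO (adjusted p = 0.0603) and without Wtap flox/flox replicates 1 and 2 (adjusted p = 0.0619 and 0.0611). Gm10516 held only without replicate 2 labelled Wtap-βKO or Wtap flox/flox replicate 3, with adjusted p of 0.103 and 0.0951 without replicates 1 and 3 labelled Wtap-βKO and 0.11 and 0.109 without Wtap flox/flox replicates 1 and 2. A730011C13Rik held only without replicate 3 labelled Wtap-βKO, with adjusted p of 0.0762 and 0.0559 without replicates 1 and 2 labelled Wtap-βKO and 0.0805, 0.0638 and 0.0623 without those of Wtap flox/flox. The call of Rcor3 was lost without each library in turn (adjusted p 0.0594 to 0.103).

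**Figure D3:**
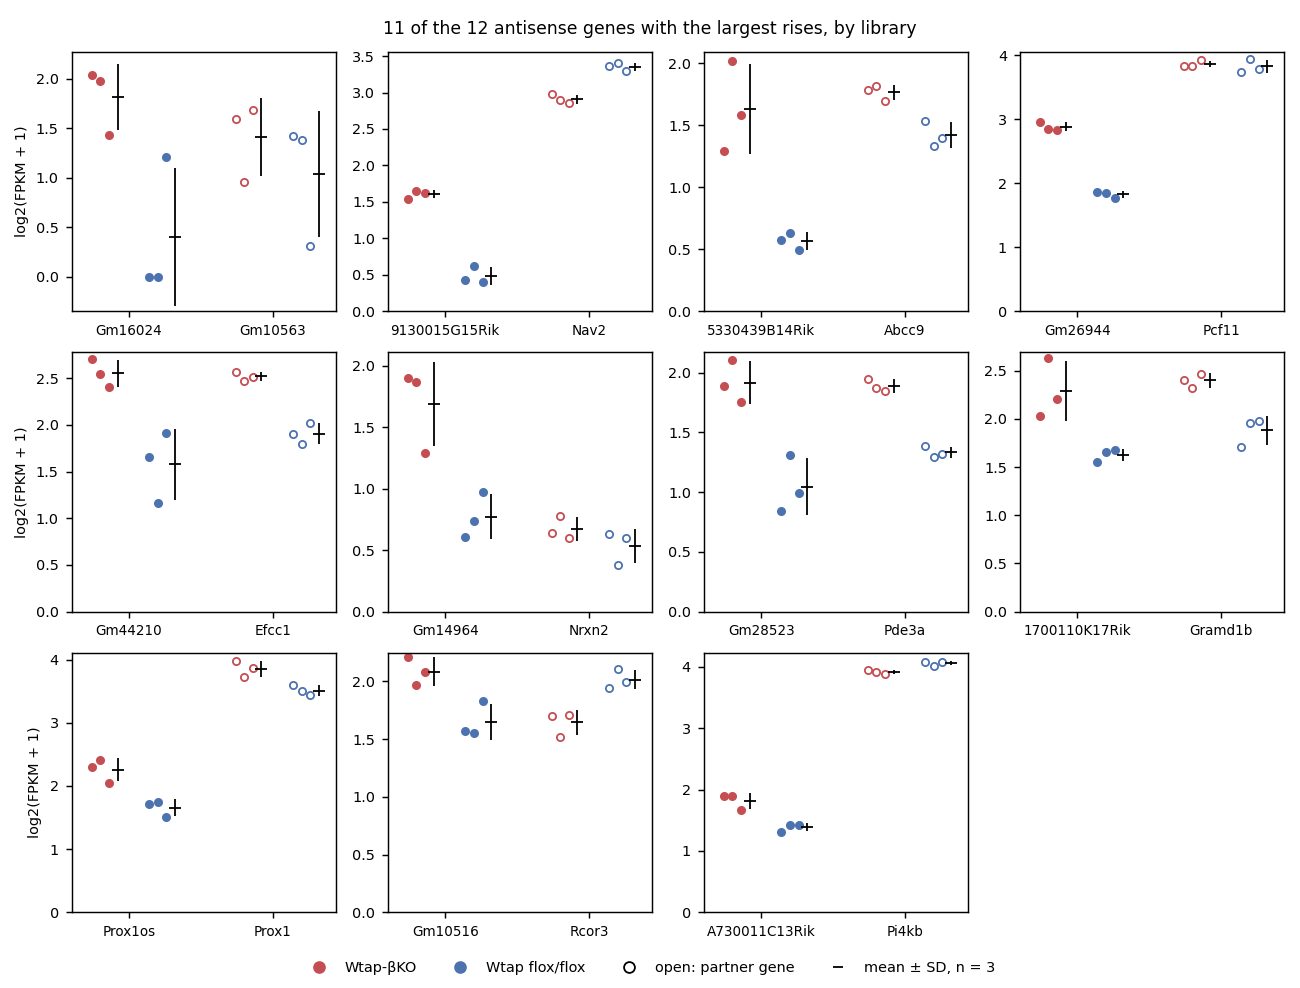
log2(FPKM + 1) in each library for 11 of the 12 antisense genes with the largest rises (filled points) and their partners (open points), with Wtap-βKO-labelled libraries in red left of Wtap flox/flox libraries in blue and black bars for mean ± SD (n = 3). The red filled points lie above the blue filled points in every panel, from 6.14 to 6.79 against 2.40 to 2.61 FPKM for Gm26944, and the vertical scale differs between panels.

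Of the remaining 28 called antisense genes, 5 higher and 23 lower, Ttc39aos1 is named by its level and is described with its arrangement. The others fell outside the rule for named genes, and those given here were chosen after their values were seen. Gm4419, head to head with Ywhaq, the gene of a 14-3-3 protein, was at 8.53, 8.14 and 8.95 FPKM in the libraries labelled Wtap-βKO, against 12.4, 11.7 and 12.8 FPKM in Wtap flox/flox libraries (1.44-fold lower, adjusted p = 0.00356). It was lower in every library labelled Wtap-βKO, while Ywhaq was not called (adjusted p = 0.0783). Gt(ROSA)26Sor, the locus used across mouse genetics for ubiquitous expression, was at 6.63, 6.59 and 6.47 against 7.51, 8.07 and 7.83 FPKM, without overlap and with the smallest fall called (log2 fold change -0.22, SE 0.06, adjusted p = 0.04). That call was lost without each library in turn (adjusted p = 0.0834, 0.056 and 0.115 without replicates 1, 2 and 3 labelled Wtap-βKO, and 0.0799, 0.121 and 0.111 without those of Wtap flox/flox).

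Each pair of an antisense gene and its partner was set side by side, as in the plot of changes. Of 248 distinct partners tested, 19 rose (7.66%) and 40 fell (16.1%). All genes tested gave 8.77% and 11.3%, and protein-coding genes 9.77% and 12.5%. Rises of partners numbered 11 without replicate 3 labelled Wtap-βKO and 8, 7 and 9 without Wtap flox/flox replicates 1, 2 and 3. Falls of partners numbered 25 without the same Wtap-βKO-labelled library and 20, 25 and 24 without those of Wtap flox/flox. Counts over all genes without these libraries are not given here, so the losses cannot be read as particular to partners. In 257 pairs with both genes tested, both fell in 8 and both rose in 5. The antisense gene rose and the partner fell in 2, 9130015G15Rik with Nav2 and Gm10516 with Rcor3, and the reverse was seen in 1, Gm42809 with Il6ra. In 30 pairs the antisense gene alone was called, in 46 the partner alone, and in 165 neither. Fallen antisense genes had a fallen partner in 25.8% of pairs, and fallen partners a fallen antisense gene in 20%. For rises these shares were 33.3% and 22.7%. Over all 257 pairs the partner fell in 40 and rose in 22, and the antisense gene fell in 31 and rose in 15. The log2 fold changes had the same sign in 169 of 257 pairs. Across pairs, which share libraries and scaling, Spearman's coefficient was 0.344 and Pearson's r 0.498 (n = 257). Spearman's coefficient was 0.459 in the 82 pairs that share no exon base and 0.277 in the 171 that share some. Pairs without a shared exon base are not thereby free of partner reads. Of the 87 such pairs, tested or not, 58 have the antisense gene wholly in partner introns. Reads of unspliced partner RNA cannot be told apart there, so the 2 coefficients do not separate mixed reads from shared change.

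**Figure D4:**
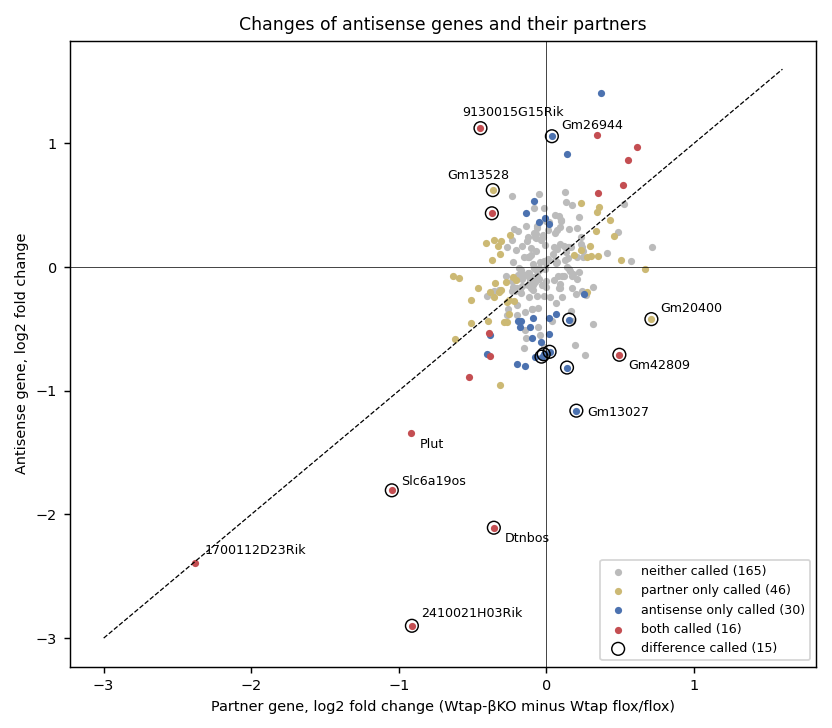
log2 fold change of each antisense gene (vertical) against that of its partner (horizontal), both as Wtap-βKO-labelled minus Wtap flox/flox libraries on the log2(FPKM + 1) scale, for 257 pairs coloured by which gene was called and circled where the difference between both genes was called (15 pairs). Points on the dashed line changed equally on this scale, which understates low genes, so 1700112D23Rik lies near the line although its fold was 9.82 and that of Slc2a2 5.34, and 2410021H03Rik lies well below it.

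Whether an antisense gene changed by another amount than its partner was tested on the difference of their log2 values, over all 442 pairs of the table. Of these 25 were called (5.66%), the antisense gene falling behind its partner in 3.39% and moving ahead in 2.26%. Of the 257 pairs described here 15 were called (5.84%), 11 falling behind (4.28%) and 4 moving ahead (1.56%). Leaving out replicate 3 labelled Wtap-βKO brought the 15 to 7, and leaving out Wtap flox/flox replicates 1, 2 and 3 brought it to 8, 7 and 9. A pseudocount of 0.1 brought it to 6. Counts over all 442 pairs under these alternatives are not given here. The same 6 pairs passed in each of 18 alternatives. The log2 fold change of 2410021H03Rik minus that of Epb41l3 was -1.99 (95% interval -2.45 to -1.53, adjusted p = 0.000316), and that of Dtnbos minus that of Dtnb was -1.75 (-2.15 to -1.36, adjusted p = 0.000316). Both antisense genes fell further than their partners. 9130015G15Rik moved ahead of Nav2 by 1.57 (1.19 to 1.95, adjusted p = 0.000316), and Gm26944 ahead of Pcf11 by 1.02 (0.67 to 1.37, adjusted p = 0.00324). 9130015G15Rik passed the minimum and the filter only through the libraries labelled Wtap-βKO, in which it was high. Its p-value here is therefore no independent support for a rise. Of the antisense genes in these 4 pairs, 3 lie wholly in their partner's introns, and Gm26944 shares 21.5% of its exon bases with Pcf11. In those introns, reads of unspliced partner RNA could not be told apart from antisense reads.

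In the other 2 of these 6 pairs the partner rose. Gm42809 starts head to head with Il6ra, the interleukin-6 receptor gene, on chromosome 3 from 89912916 to 89914053, and shares 21.3% of its exon bases with it. It was at 2.47, 4.02 and 2.34 FPKM in the libraries labelled Wtap-βKO, against 5.32, 6.34 and 4.49 FPKM in Wtap flox/flox libraries, with no overlap. Il6ra was at 46.6, 57.0 and 42.5 FPKM labelled Wtap-βKO, against 33.4, 35 and 33.8 FPKM in Wtap flox/flox, higher in every library. The difference was -1.20 (95% interval -1.58 to -0.83, adjusted p = 0.00249). Taken singly, Gm42809 was called at an adjusted p of 0.0345, lost without replicates 1 and 3 labelled Wtap-βKO (adjusted p = 0.0996 and 0.101) and without each Wtap flox/flox library (adjusted p = 0.092, 0.107 and 0.0523). Il6ra was called at 0.0183, lost without each Wtap flox/flox library (adjusted p = 0.0638, 0.0556 and 0.0613).

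Gm20400 lies in introns of Slco1a6, an organic anion transporter gene, and was at 5.98, 8.32 and 6.02 FPKM in the libraries labelled Wtap-βKO and 7.90, 9.81 and 10.4 FPKM in Wtap flox/flox libraries, with overlap and no call of its own (adjusted p = 0.0822). Slco1a6 was at 10.1, 9.15 and 10.1 FPKM labelled Wtap-βKO, against 5.31, 5.14 and 6.36 FPKM in Wtap flox/flox (1.75-fold higher, adjusted p = 0.00303). The difference was -1.13 (95% interval -1.56 to -0.71, adjusted p = 0.0068). The antisense gene was thus above its partner in Wtap flox/flox and below it in the libraries labelled Wtap-βKO, in every library. The other 9 called pairs were each lost in at least 5 alternatives. Among them Gm13528, in introns of Ralgps1, a gene for a Ral exchange factor, was at 3.10, 2.45 and 4.53 FPKM labelled Wtap-βKO, against 2.37, 1.54 and 1.51 FPKM in Wtap flox/flox, a difference from Ralgps1 of 0.99 (adjusted p = 0.028). It was lost without replicates 1 and 3 labelled Wtap-βKO (adjusted p = 0.0698 and 0.0806) and without Wtap flox/flox replicates 2 and 3 (adjusted p = 0.0881 and 0.0638).

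**Figure D5:**
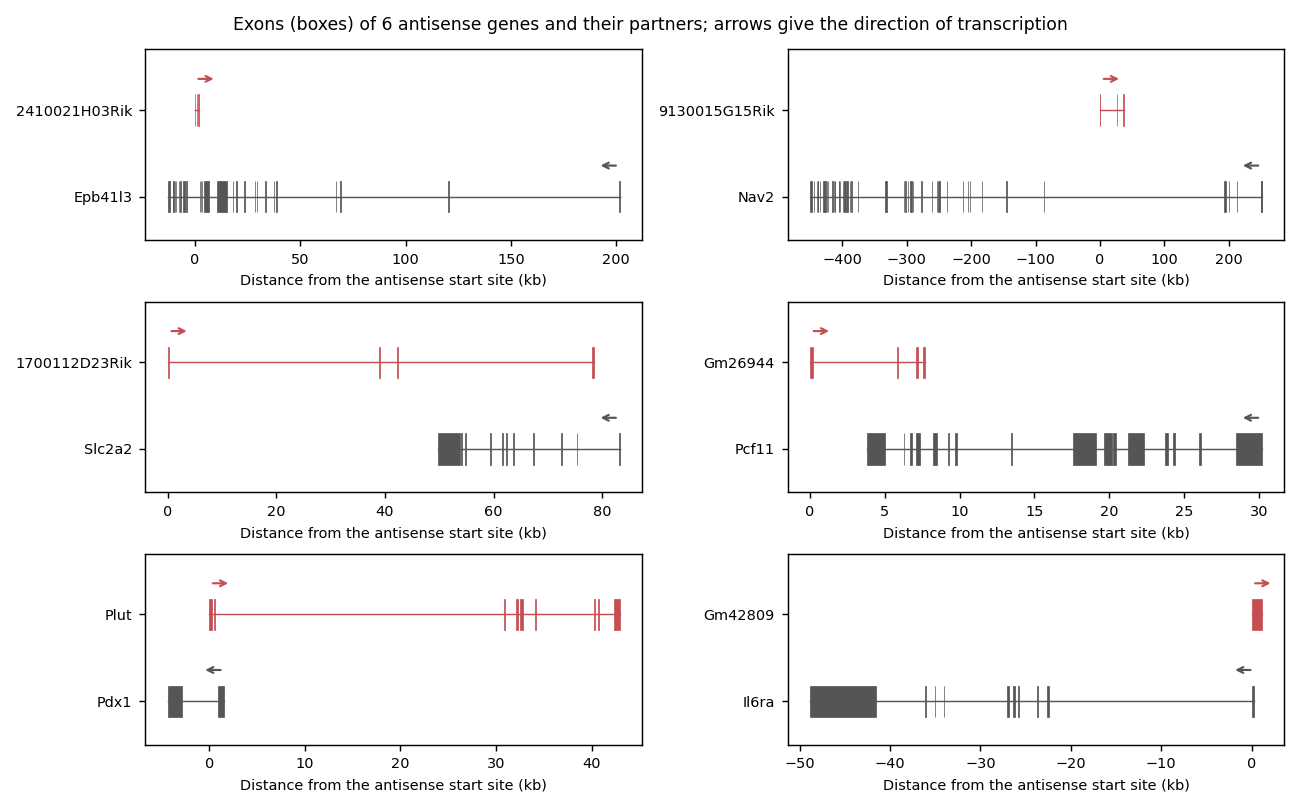
Exons (boxes) of 6 antisense genes (red) and their partners (grey), drawn to scale by distance in kb from the antisense start site with arrows for the direction of transcription. 2410021H03Rik and 9130015G15Rik lie in introns, 1700112D23Rik and Gm26944 run tail to tail into Slc2a2 and Pcf11, and Plut and Gm42809 start head to head with Pdx1 and Il6ra.

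The arrangement of a pair did not set the share of calls far apart. Called antisense genes were 8 higher and 14 lower of 124 inside their partner (17.7%), 4 and 11 of 78 head to head (19.2%), 4 and 7 of 58 tail to tail (19.0%), 0 and 1 of 8 around their partner (12.5%) and 1 and 2 of 24 without one (12.5%), beside 20.1% of all genes. The difference within the pair was called in 8 of 117, 6 of 78, 1 of 56 and 0 of 6 tested pairs of the first 4 arrangements. Ttc39aos1 shows the class without a partner. It starts beside Ttc39a, runs away from it, and was at 23.1, 13.7 and 19.3 FPKM in the libraries labelled Wtap-βKO, against 26.4, 30.3 and 33.5 FPKM in Wtap flox/flox libraries, with no overlap (1.61-fold lower, adjusted p = 0.0394). Ttc39a was at 9.38 ± 0.504 FPKM labelled Wtap-βKO and 16.1 ± 0.612 FPKM in Wtap flox/flox (SD, n = 3 each, adjusted p = 0.000809). The call of Ttc39aos1 was lost in 10 of 17 alternatives, among them without replicate 3 labelled Wtap-βKO (adjusted p = 0.0853) and without Wtap flox/flox replicates 1, 2 and 3 (adjusted p = 0.0641, 0.107 and 0.118).

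Pax6os1, head to head with Pax6, a factor of all islet endocrine cells, was at 4.88, 6.35 and 4.37 FPKM in the libraries labelled Wtap-βKO and 7.23, 8.02 and 6.77 FPKM in Wtap flox/flox libraries, apart but just short of the threshold (log2 fold change -0.44, SE 0.13, adjusted p = 0.0507). Pax6 fell to 25.4 ± 0.424 FPKM labelled Wtap-βKO, against 33.7 ± 1.14 FPKM in Wtap flox/flox (SD, n = 3 each, adjusted p = 0.00338). The difference within that pair was -0.04 (95% interval -0.42 to 0.33).

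Among the 10 most abundant antisense genes whose symbols end in os, 5 more that did not pass the test are given here. Brip1os was at 7.45 ± 0.749 FPKM labelled Wtap-βKO and 6.24 ± 0.154 FPKM in Wtap flox/flox (SD, n = 3 each, adjusted p = 0.0931). Rap1gapos, in introns of the Rap GTPase activator gene Rap1gap, was at 6.64, 4.98 and 7.02 against 3.76, 3.49 and 5.01 FPKM, overlapping by a narrow margin (adjusted p = 0.0576). Phf2os1, Rab10os and Pcsk2os1 had adjusted p of 0.585, 0.359 and 0.557, although Pcsk2 was called higher (adjusted p = 0.0465) and Phf2 lower (adjusted p = 0.0122). The call of Pcsk2 was lost without 5 of the 6 libraries (adjusted p = 0.0708 and 0.138 without replicates 2 and 3 labelled Wtap-βKO, and 0.123, 0.155 and 0.105 without Wtap flox/flox replicates 1, 2 and 3). Under quantile normalization its log2 fold change was 0.0043 (adjusted p = 0.96), beside 0.27 with the deposited scaling. The call of Phf2 was lost without Wtap flox/flox replicate 1 (adjusted p = 0.0509). Tug1, a widely expressed long noncoding RNA named outside the rule, averaged 11.9 ± 0.399 FPKM labelled Wtap-βKO and 11.3 ± 0.861 FPKM in Wtap flox/flox (SD, n = 3 each, adjusted p = 0.542). Airn and Kcnq1ot1, imprinted antisense RNAs left out by the rule, were not called (adjusted p = 0.933 and 0.637).

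The 240 antisense genes that were not called had log2 fold changes between -0.96 and 0.62, and 86 of all 292 had an unadjusted p under 0.05. At the minimum of 1 FPKM the genes just inside were Gm48249 (1.001 FPKM), Gm44941 (1.01 FPKM) and Gm26873 (1.01 FPKM). Those just outside were Gm13707 (0.995 FPKM), Gm17196 (0.994 FPKM) and 3110045C21Rik (0.993 FPKM).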

How the data were processed

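Poly-A RNA of pooled islets was sequenced in pairs, per the labels' protocols, and the authors deposited 1 table of FPKM values, with coordinates, biotype and gene length in bases per the file headers. The submitters' processing notes name, without roles, DESeq2 1.20.0, featureCounts 1.5.0-p3, HISAT2 2.0.5 and CASAVA, with GRCm38. How strand was set in counting is not given there. FPKM times length gave whole reads within 0.01 read for 100% of values, 16353297 to 18682745 per library. The library size implied by 1 read differed from that sum by group. It was 1.04 to 1.07 times the sum labelled Wtap-βKO and 0.952 to 0.988 times the sum in Wtap flox/flox. The deposited scaling thus set values labelled Wtap-βKO lower, relative to Wtap flox/flox, than scaling to total recovered reads does.

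The deposited FPKM were tested as log2(FPKM + 1) with limma 3.58.1 in R 4.3.3 (eBayes with a variance trend, two-sided, Benjamini-Hochberg over 15927 genes with a mean of at least 0.5 FPKM, threshold 0.05), which gives every adjusted p printed. The pair difference was fitted likewise over 442 pairs. SE and intervals are limma's. A partner is the opposite-strand gene with overlapping span, protein-coding and longest overlap first. Named were the 12 largest changes called in each direction, the 8 highest means, 10 symbols ending in os or as, the genes beside the minimum, and their partners, a few of which are not reported here. The antisense genes, lists and rules were chosen with earlier results of these data known.

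In simulated libraries of this comparison with 15941 genes fitted, 14 of 100 genes changed 1.5-fold and 75 of 100 changed 2-fold were called, with 9 of 15747 unchanged genes. In 443 simulated pairs, 34 of 60 with a 2-fold difference were called and 0 of 383 others. Every simulated gene had the same spread between replicates beyond sampling, and no library stood apart, as replicate 2 labelled Wtap-βKO did in the data. The single genes changed were drawn from all genes of at least 0.5 FPKM, so their shares are not those of antisense genes. Replicates differed by more than sampling noise (chi-square per degree of freedom 5.38 to 18.1). The labels call them independent biological replicates. Replicate numbers were not treated as pairs. Python 3.11.15 with pandas 2.3.3 read the tables.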

Additional observations from a re-analysis of the deposited data

How the results depend on the processing

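Every alternative planned was run, and none turned the direction of a named gene that was called. With no filter on low values, 8 antisense genes were called higher and 21 lower, and 11 partners higher. Scaled to total recovered reads, 26 antisense genes were called higher, with 34 partners higher and 21 lower, while calls over all genes turned to 2334 higher and 1094 lower. Among antisense genes of at least 2 FPKM, 11 were called higher, and 20 partners lower. A pseudocount of 0.1 left 6 pairs with a called difference. Leaving out each library in turn gave 8 to 20 antisense genes higher and 20 to 37 lower, 7 to 17 partners higher and 20 to 41 lower, and 7 to 10 pairs. With the replicate number as a block, 16 antisense genes were called higher and 29 lower, 16 partners higher and 29 lower, and 10 pairs. Same-numbered libraries deviated together only weakly (correlations of 0.0293, 0.0377 and 0.0185), although each correlated best with its own number. limma voom on the recovered reads called 16 antisense genes higher and 32 lower. Apart from the scaling to total recovered reads, counts over all genes are not given beside these, so the changes in count are not particular to antisense genes as far as shown. Of 2471 values of single genes under alternatives, 2195 kept their side of the threshold, 242 lost it and 34 gained it. The causes were not tested. Genes with few reads are limited by depth, as 8 antisense genes had under 60 reads over 6 libraries, and a changed gene is often missed at this size of study.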
